A study of Mus musculus with 81 samples.

Results

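The genes described are the writers, erasers and readers of DNA methylation: Dnmt1 and Dnmt3a as writers, with the ubiquitin ligase Uhrf2 grouped beside them, Tet1, Tet2 and Tet3 as erasers, and Mbd1, Mbd2 and Mbd3 as readers. They were chosen by name, with earlier results of these data known, and are 9 of the 57010 gene identifiers in the count tables. All 9 passed the filter on low counts in every comparison. DNA methyltransferases place a methyl group on cytosine, mostly where a guanine follows (CG), with Dnmt3a setting new marks and Dnmt1 copying marks onto the new strand after replication. Tet enzymes oxidise 5-methylcytosine to 5-hydroxymethylcytosine and beyond, which base excision repair can replace by plain cytosine, and the oxidised form is abundant in neurons. Proteins with a methyl-CpG-binding domain read the mark or sit in complexes that do, and the methyl groups themselves come from one-carbon metabolism, to which dietary choline contributes.

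The study compared Ts65Dn mice (Ts), a model of Down syndrome, with disomic mice (2N) in 3 excitatory neuron populations of the hippocampus collected by laser capture microdissection (LCM): pyramidal neurons (PNs) of CA1 and of CA3, and granule cells of the dentate gyrus (DGCs). Dams were fed a choline normal diet (ChN, 1.1 g/kg choline) or a choline supplemented diet (ChP, 5.0 g/kg) from embryonic day 0 to postnatal day 21, and all offspring were studied at 6 months of age. The tables held 81 libraries of 28 mice: 6 2N and 6 Ts mice on ChN, and 7 2N and 9 Ts mice on ChP. Each library was 1 pool of neurons of 1 mouse from 20 µm sections, on average about 950 CA1 PNs, 750 CA3 PNs or 1175 DGCs. In CA1 PNs there were 6 2N ChN, 5 Ts ChN, 7 2N ChP and 9 Ts ChP libraries, in CA3 PNs 6, 6, 7 and 7, and in DGCs 6, 6, 7 and 9. The trisomy is constitutional: a small supernumerary chromosome brings an extra copy of Mmu16 genes that have HSA21 counterparts, and of some Mmu17 genes that do not. The ChN mice were male, and the labels give no sex for the ChP mice. Age and, per the labels, the dissection and library protocols were shared by all groups. None of the 9 genes lies on Mmu16 or Mmu17. Levels within a gene are given in CPM, counts scaled to a common library size with the trimmed mean of M values over all 81 libraries, and differences as log2 fold changes (LFC) from edgeR's quasi-likelihood test.

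Total expected counts ran from 625249 to 4744036 per ChN library (median 1195085) and from 358355 to 2559173 per ChP library (median 1050477). Summed CPM of 6 dentate granule cell markers was 1739 to 2331 in DGC libraries against at most 162.7 in CA1 and 249.0 in CA3 libraries, and 5 CA3 markers summed to 675.8 to 856.5 CPM in CA3 libraries against at most 144.6 CPM in DGC and 611.8 CPM in CA1 libraries. In 6 of 27 CA1 libraries, 1 or 2 in each of the 4 mouse groups, 6 markers of the neighbouring CA2 field (1109 to 1773 CPM) exceeded 6 CA1 markers (68.2 to 722 CPM), against 71.0 to 541 CPM and 954 to 2031 CPM in 20 others. The CA3 markers were also high in these 6 libraries (251 to 612 CPM, against 18.9 to 203 CPM in the 20 others), and they enter each comparison of CA1 with CA3 PNs. The summed level of 16 triplicated Mmu16 genes did not overlap between genotypes in CA3 PNs (2N 6217 to 7043 CPM, Ts 8935 to 10452 CPM) or DGCs (2N 3620 to 3968 CPM, Ts 5628 to 6321 CPM). In CA1 PNs 1 library labelled 2N, of mouse 17-154, stood at 8346 CPM, inside the Ts range of 7134 to 8568 CPM. The CA3 library of mouse 15-145 is titled as Ts, whereas the CA1 and DGC libraries of that mouse are titled 2N, and it was used as 2N. Values without the 6 CA2-rich libraries and the 17-154 CA1 library are given below where they change a call. A difference between such pools can reflect the number of cells that express a gene or the RNA per cell, which cannot be told apart.

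Per length, Mbd3 was the most abundant of the 9 transcripts and Tet1 the least. Median TPM, the share of a library's transcripts corrected for length, over all 81 libraries was 46.2 for Mbd3 (range 6.74 to 126), 24.7 for Mbd2 (9.41 to 53.5) and 21.8 for Uhrf2 (4.95 to 81.5). Tet2 (19.1), Dnmt3a (18.8), Tet3 (18.4) and Mbd1 (16.2) had medians close to each other with broadly overlapping ranges. Dnmt1 (12.6) and Tet1 (4.92) closed the order. Mbd3 ranked first in 23 of 27 CA1, 26 of 26 CA3 and 23 of 28 DGC libraries, and Tet1 ranked last in all 81. The single highest gene of a library took between 4.92% and 64.9% of its TPM (median 9.48%), which lowers the TPM of all other genes there, and differences within a gene were read from counts. The median expected count over all libraries was 145 for Tet3, 129 for Tet2, 89 for Dnmt3a and between 39 and 60 for Dnmt1, Uhrf2, Mbd1, Mbd2 and Mbd3, with 22 for Tet1. A count of 22 carries a counting error of 21.3% in 1 library, against 8.30% for Tet3.

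**Figure D1:**
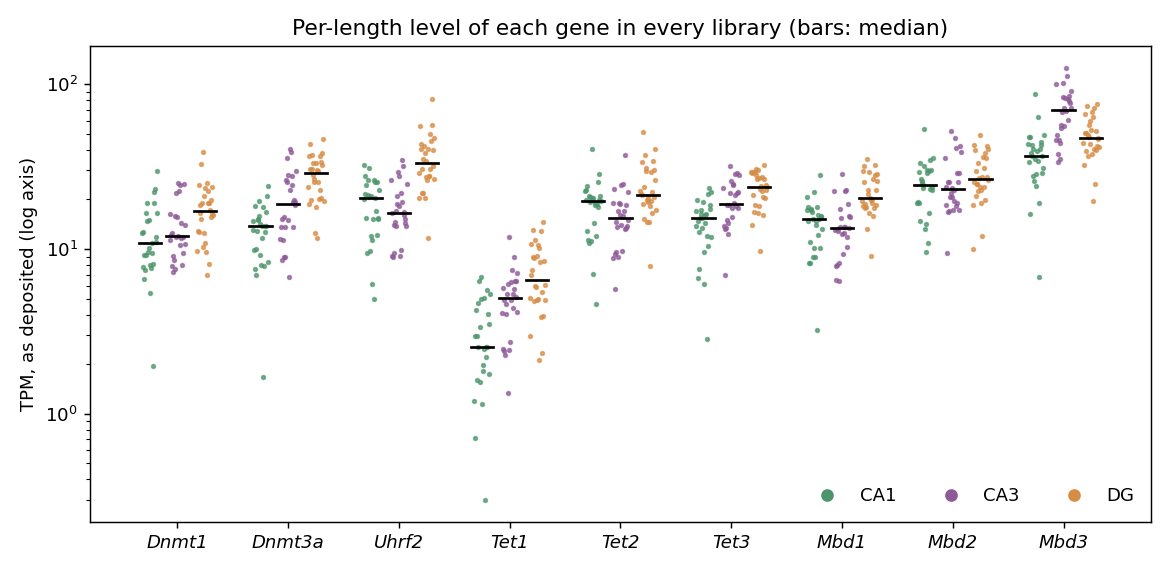
TPM of the 9 genes on a log axis in CA1 PNs, CA3 PNs and DGCs, 1 point per library and a line at each median. Mbd3 lies highest (median 46.2 TPM over all libraries) and Tet1 lowest (4.92 TPM).

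Upstream sequence is shown for the gene with the widest population difference, for an eraser that also had its highest median in DGCs and for the 1 gene with its highest median in CA3 PNs. Windows of 250 bases before the start of the Ensembl canonical transcript (GENCODE vM39 on GRCm39) were read for 21757 protein-coding genes, and all 9 genes matched. The median window held 8 CG dinucleotides (quartiles 3 and 16), 7.39% of windows held none, and 36.3% held the motif GGGCGG, the core of the Sp1 GC box, on either strand. The window of Dnmt3a held 39 CG and 5 GGGCGG matches, and 0.850% of all windows held as many CG. Tet3 (38 CG, 3 matches, 0.997%) was close to it. Uhrf2 (21 CG, 3 matches), Tet2 (17 CG, 1 match), Mbd3 (15 CG, 1 match) and Mbd2 (12 CG, 1 match) lay above the median, and Dnmt1 (7), Mbd1 (5) and Tet1 (2) lay below it with no match. The windows of Dnmt1, Uhrf2, Tet1 and Tet2 overlapped exons of other transcripts of the same gene. Those of Dnmt3a and Tet3 held no exon of the gene but lay within its annotated span, upstream of the canonical transcript only. The windows of Dnmt3a (chr12:3856713-3856962, plus strand), Tet3 (chr6:83433375-83433624, minus strand) and Mbd3 (chr10:80235398-80235647, minus strand) are printed 5′ to 3′ on the strand of the gene, with each CG in capitals.
Dnmt3a: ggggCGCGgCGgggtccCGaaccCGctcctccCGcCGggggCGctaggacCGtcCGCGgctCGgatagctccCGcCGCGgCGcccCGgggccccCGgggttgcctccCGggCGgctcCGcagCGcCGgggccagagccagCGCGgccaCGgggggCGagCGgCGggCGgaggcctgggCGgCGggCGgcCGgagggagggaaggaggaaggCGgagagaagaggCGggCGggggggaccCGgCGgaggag
Tet3: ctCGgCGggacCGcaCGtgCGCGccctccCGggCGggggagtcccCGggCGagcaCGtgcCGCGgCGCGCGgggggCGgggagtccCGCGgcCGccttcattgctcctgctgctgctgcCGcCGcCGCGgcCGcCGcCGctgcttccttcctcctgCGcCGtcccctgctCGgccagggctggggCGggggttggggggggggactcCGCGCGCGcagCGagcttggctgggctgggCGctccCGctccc
Mbd3: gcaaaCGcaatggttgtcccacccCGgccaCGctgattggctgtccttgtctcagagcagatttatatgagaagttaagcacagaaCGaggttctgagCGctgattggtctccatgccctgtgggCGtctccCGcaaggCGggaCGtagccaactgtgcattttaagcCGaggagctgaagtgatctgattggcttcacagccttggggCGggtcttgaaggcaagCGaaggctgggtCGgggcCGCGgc
A match to a motif is a description of these letters and says nothing about which factor binds them.

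Which population expressed the genes most was asked within each of the 4 mouse groups. DGCs had the highest level of most of them: Dnmt3a and Uhrf2 were lower in both pyramidal populations in all 4 groups, and Dnmt1, Tet3 and Mbd1 in 3 or 4. Tet2 was lower in CA3 PNs than in DGCs but did not pass between CA1 PNs and DGCs, and Mbd3, with its highest median in CA3 PNs, passed there against DGCs in the 2 ChN groups only. Between CA3 PNs and DGCs, 6 genes were lower and 1 was higher in CA3 PNs of 2N ChN mice at an adjusted p under 0.05, where 43.7% of 14973 genes tested passed in either direction and 21.8% were lower. In 2N ChP mice 7 genes were lower and 0 higher (40.4% of all genes passed, 19.5% lower), in Ts ChN mice 5 lower and 1 higher (44.5%, 22.5% lower), and in Ts ChP mice 7 lower and 0 higher (44.2%, 22.1% lower). Between CA1 PNs and DGCs, 5 of 9 were lower in CA1 PNs in 2N ChN mice (34.3% of all genes passed, 16.7% lower), 5 in 2N ChP mice (31.8%, 14.7% lower), 3 in Ts ChN mice (33.7%, 16.2% lower) and 6 in Ts ChP mice (39.3%, 18.8% lower), and none was higher. Between the pyramidal populations fewer passed: 1 lower in CA1 PNs in 2N ChN mice (23.3% of all genes passed), 1 lower and 1 higher in 2N ChP mice (22.9%), 1 lower and 2 higher in Ts ChN mice (25.3%), and 3 higher in Ts ChP mice (24.5%). The median LFC of the 9 genes between CA3 PNs and DGCs was -0.37, -0.53, -0.43 and -0.49 in 2N ChN, 2N ChP, Ts ChN and Ts ChP mice, beside -0.04, -0.02, -0.06 and -0.04 over all genes tested. The medians between CA1 PNs and DGCs were -0.40, -0.50, -0.26 and -0.46, beside values between -0.04 and 0.00 over all genes. The 3 comparisons of a mouse group share libraries, so their counts are not independent of each other.

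**Figure D2:**
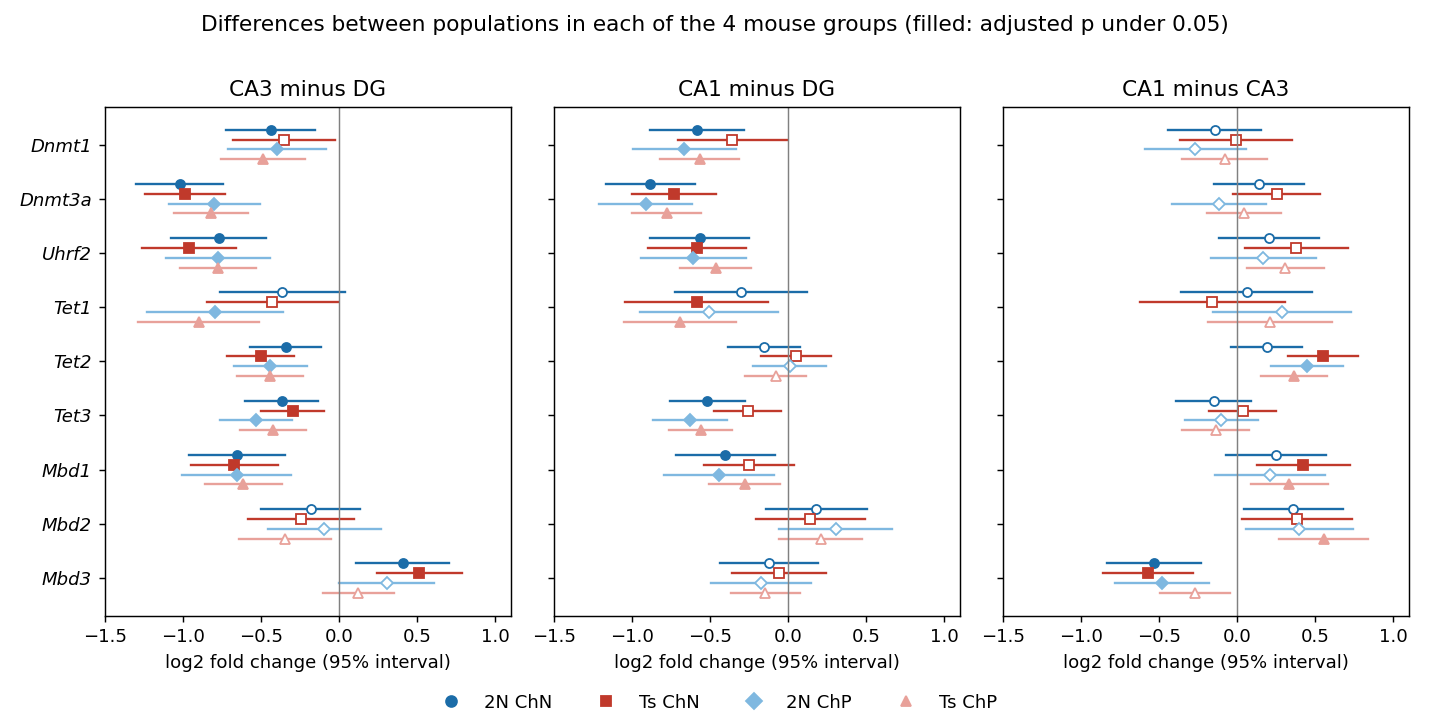
LFC of the 9 genes between populations in each mouse group, with 95% confidence intervals from edgeR. For CA3 PNs against DGCs most genes lie below 0, with Dnmt3a from -1.02 to -0.80, and Mbd3 lies above 0 (with library totals its Ts ChP value is -0.09).

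Dnmt3a (ENSMUSG00000020661, chr12:3856007-3964443, plus strand), the de novo methyltransferase of mature neurons, had the widest population difference. In 2N ChN mice the 6 CA3 libraries stood at 56.8, 59.9, 60.9, 63.0, 71.2 and 75.1 CPM, the 6 CA1 libraries at 44.7, 54.9, 73.6, 77.6, 85.4 and 88.3 CPM, and the 6 DGC libraries at 101.8, 120.5, 121.7, 126.1, 132.7 and 162.7 CPM. Every DGC library lay above every pyramidal library. The same held in the other 3 groups: DGC levels ran from 82.9 to 161.2 CPM, CA3 levels from 46.6 to 79.5 CPM and CA1 levels from 41.7 to 92.4 CPM, without overlap within a group. The LFC between CA3 PNs and DGCs was -1.02 ± 0.14 (SE) in 2N ChN, -0.80 ± 0.14 in 2N ChP, -0.98 ± 0.13 in Ts ChN and -0.82 ± 0.12 in Ts ChP mice, a level 1.74- to 2.03-fold higher in DGCs (largest adjusted p = 1.25e-05). Between CA1 PNs and DGCs it was -0.88 ± 0.14, -0.91 ± 0.15, -0.73 ± 0.13 and -0.78 ± 0.11 in the same order (largest adjusted p = 2.51e-05). Dnmt3a was higher in DGCs in 26 of 26 mice with both CA3 and DGC libraries and in 27 of 27 with both CA1 and DGC libraries. Groups that do not overlap in this sense made up 20.2%, 14.5%, 20.4% and 15.6% of 20493 genes for CA3 PNs and DGCs in 2N ChN, 2N ChP, Ts ChN and Ts ChP mice, and 12.9%, 9.52%, 15.8% and 9.33% for CA1 PNs and DGCs. CA1 and CA3 PNs differed by 0.14, -0.11, 0.25 and 0.04, and none of these passed (smallest adjusted p = 0.187).

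Uhrf2 (ENSMUSG00000024817, chr19:30007571-30071692, plus strand), a ubiquitin ligase that can bind 5-hydroxymethylcytosine and the paralogue of the Dnmt1 partner Uhrf1, followed Dnmt3a. In 2N ChN mice the levels ran from 33.0 to 58.8 CPM (median 43.1) in CA3 PNs, from 33.2 to 70.1 CPM (median 51.4) in CA1 PNs and from 60.9 to 80.7 CPM (median 75.9) in DGCs. CA3 and DGC libraries did not overlap in any of the 4 groups, and CA1 and DGC libraries overlapped in all of them. The LFC between CA3 PNs and DGCs was -0.77, -0.77, -0.96 and -0.77 in 2N ChN, 2N ChP, Ts ChN and Ts ChP mice (SE 0.12 to 0.16, largest adjusted p = 0.000144), with 26 of 26 mice higher in DGCs. Between CA1 PNs and DGCs it was -0.57, -0.61, -0.58 and -0.46 (largest adjusted p = 0.00402), with 25 of 27 mice higher in DGCs.

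Dnmt1 (ENSMUSG00000004099, chr9:20817945-20871184, minus strand), the maintenance methyltransferase, had a smaller difference. Its median was 40.9 CPM in 27 CA1 libraries (range 23.9 to 65.4), 47.6 CPM in 26 CA3 libraries (32.9 to 61.7) and 60.5 CPM in 28 DGC libraries (36.0 to 76.8). The populations overlapped, and the gene was higher in DGCs than in CA1 PNs in 24 of 27 mice and than in CA3 PNs in 23 of 26. It passed in 3 of 4 groups against CA1 PNs (LFC -0.58 in 2N ChN, -0.67 in 2N ChP and -0.57 in Ts ChP mice) and against CA3 PNs (-0.44, -0.40 and -0.49). Against CA3 PNs the 2N ChP call was lost with no filter on low counts (adjusted p = 0.0673). It was also lost without any 1 of 5 mice (largest adjusted p = 0.102). In Ts ChN mice the values were -0.36 (adjusted p = 0.1104) and -0.35 (adjusted p = 0.0758). CA1 and CA3 PNs did not pass in any group (smallest adjusted p = 0.257).

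The erasers differed among themselves. Tet3 (ENSMUSG00000034832, chr6:83339355-83436066, minus strand), a dioxygenase whose long form carries a CXXC domain, had medians of 114.9 CPM in CA1 PNs (72.3 to 144.2), 118.9 CPM in CA3 PNs (94.2 to 146.7) and 156.6 CPM in DGCs (115.1 to 190.8). Its levels were higher in DGCs than in CA1 PNs in 27 of 27 mice and than in CA3 PNs in 25 of 26, although the ranges overlapped across mice. The LFC between CA3 PNs and DGCs passed in all 4 groups, at -0.37, -0.53, -0.29 and -0.42 in 2N ChN, 2N ChP, Ts ChN and Ts ChP mice, and that between CA1 PNs and DGCs passed in 3, at -0.52, -0.63 and -0.56, with -0.26 (adjusted p = 0.0556) in Ts ChN mice. Bola3, on the opposite strand, shares 5383 bases of the Tet3 locus and had a median expected count of 10. Other members also overlap opposite-strand genes. Long noncoding RNA genes share 9735 bases of Mbd1 (Gm58866) and 8288 bases of Mbd3 (Gm30823), and neither was among the counted genes. The kit marks strand, but the strand setting of the counting is not given in the sources used here.

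Tet2 (ENSMUSG00000040943, chr3:133169436-133250900, minus strand), an eraser without the CXXC domain of Tet1 and Tet3, was low in CA3 PNs. Medians were 125.2 CPM in CA1 PNs (90.2 to 153.7), 90.1 CPM in CA3 PNs (66.8 to 129.1) and 125.3 CPM in DGCs (90.6 to 152.2). The LFC between CA3 PNs and DGCs was -0.34, -0.44, -0.50 and -0.44 in 2N ChN, 2N ChP, Ts ChN and Ts ChP mice, and all 4 passed (adjusted p = 0.000152 to 0.0129). Between CA1 and CA3 PNs the LFC was 0.45, 0.55 and 0.36 in 2N ChP, Ts ChN and Ts ChP mice (adjusted p = 0.000146 to 0.00634) and 0.19 in 2N ChN mice, which did not pass (adjusted p = 0.259). Tet2 was higher in CA1 than in CA3 PNs in 23 of 25 mice, and the groups did not overlap in Ts ChN mice, as for 11.1% of 20493 genes. CA1 PNs and DGCs differed by -0.15 to 0.05 and did not pass in any group, with 14 of 27 mice higher in CA1 PNs.

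Tet1 (ENSMUSG00000047146, chr10:62640349-62744775, minus strand), the least abundant eraser, had medians of 15.9 CPM in CA1 PNs (11.9 to 27.0), 16.4 CPM in CA3 PNs (5.78 to 23.5) and 23.9 CPM in DGCs (15.4 to 34.6). Levels were higher in DGCs in 24 of 27 mice against CA1 PNs and in 23 of 26 against CA3 PNs, with overlapping ranges. The LFC between CA3 PNs and DGCs passed in both ChP groups, at -0.79 ± 0.22 in 2N and -0.90 ± 0.19 in Ts mice, and was -0.36 (adjusted p = 0.137) and -0.43 (adjusted p = 0.0927) in 2N and Ts mice on ChN. That difference between diets was not tested. Between CA1 PNs and DGCs it passed in both Ts groups, at -0.59 on ChN and -0.69 on ChP, with -0.30 (adjusted p = 0.284) and -0.50 (adjusted p = 0.0757) in 2N mice. The ChN call was lost with no filter (adjusted p = 0.0700) and with the CA3 library of mouse 15-145 as Ts (adjusted p = 0.0537). It was also lost without any 1 of 4 mice (largest adjusted p = 0.233). Its standard errors, 0.18 to 0.23, were the largest of the 9 genes in every population comparison.

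Among the readers, Mbd1 (ENSMUSG00000024561, chr18:74400676-74415803, plus strand), which binds methylated CG and, through CXXC domains, also unmethylated CG, had medians of 46.4 CPM in CA1 PNs (27.3 to 59.6), 35.9 CPM in CA3 PNs (24.0 to 44.9) and 55.8 CPM in DGCs (30.1 to 74.7). CA3 and DGC libraries did not overlap in 3 of the 4 groups, and 25 of 26 mice were higher in DGCs. The LFC between CA3 PNs and DGCs was -0.65, -0.66, -0.67 and -0.61 in 2N ChN, 2N ChP, Ts ChN and Ts ChP mice (adjusted p = 4.69e-05 to 0.00184). Against CA1 PNs it passed in 3 groups, at -0.40, -0.44 and -0.28 in 2N ChN, 2N ChP and Ts ChP mice, with an adjusted p of 0.0436 to 0.0484, and was -0.25 in Ts ChN mice. With no filter none of the 3 passed (adjusted p = 0.0672 to 0.0772), and the 2N ChN call was also lost with DESeq2 (adjusted p = 0.0526) and limma-voom (adjusted p = 0.0597). Leaving out 1 mouse ended the 2N ChN call for 5 mice (largest adjusted p = 0.129), the 2N ChP call for 4 (0.176) and the Ts ChP call for 6 (0.160). Mbd1 was higher in CA1 than in CA3 PNs in 21 of 25 mice, and that difference passed in Ts mice on ChN (0.42, adjusted p = 0.0287) and on ChP (0.34, adjusted p = 0.0373). With mouse as a block the ChN value was 0.37 (adjusted p = 0.0570), and with no filter it also missed the threshold (adjusted p = 0.0503). The ChP call was lost with DESeq2 (adjusted p = 0.0512), limma-voom (adjusted p = 0.0516) and no filter (adjusted p = 0.0751). Leaving out 1 mouse also ended the ChN call for 4 mice (largest adjusted p = 0.178) and the ChP call for 5 (0.114).

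Mbd2 (ENSMUSG00000024513, chr18:70701260-70762203, plus strand), which recruits the NuRD corepressor complex to methylated DNA, had the fewest calls between populations, 1 of 12. Medians were 37.7 CPM in CA1 PNs (29.4 to 65.9), 30.6 CPM in CA3 PNs (19.03 to 42.5) and 35.3 CPM in DGCs (20.0 to 42.7). The ranges overlapped, with the highest CA1 libraries above every CA3 and DGC library. No comparison with DGCs passed in any group, and 1 of 4 comparisons of CA1 with CA3 PNs did (LFC 0.56 ± 0.14 in Ts ChP mice, adjusted p = 0.00216). The other groups gave 0.36, 0.40 and 0.38 in 2N ChN, 2N ChP and Ts ChN mice, and 22 of 25 mice were higher in CA1 PNs.

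Mbd3 (ENSMUSG00000035478, chr10:80225002-80235397, minus strand), the NuRD subunit that has lost most of its affinity for methylated DNA, had its highest median in CA3 PNs. In 2N ChN mice it ran from 35.5 to 64.4 CPM (median 49.2) in CA1 PNs, from 58.3 to 81.3 CPM (median 69.7) in CA3 PNs and from 42.7 to 64.9 CPM (median 50.1) in DGCs. CA3 libraries were high, with some overlap. The LFC between CA1 and CA3 PNs was -0.53, -0.48 and -0.57 in 2N ChN, 2N ChP and Ts ChN mice (adjusted p = 0.00214 to 0.0148) and -0.27 (adjusted p = 0.0764) in Ts ChP mice, with 23 of 25 mice higher in CA3 PNs. Between CA3 PNs and DGCs it was 0.41 (adjusted p = 0.0221) in 2N ChN and 0.51 (adjusted p = 0.00173) in Ts ChN mice, and 0.31 and 0.13 in 2N and Ts mice on ChP, which did not pass. Scaling by library totals, which moved the median LFC of all genes between CA3 PNs and DGCs to between -0.26 and -0.23, and that between CA1 PNs and DGCs to between -0.17 and -0.12, left the first of these at 0.21 (adjusted p = 0.265), brought the 2N ChP value to 0.09 and turned the Ts ChP value to -0.09. It also left the 2N ChP value between CA1 and CA3 PNs at -0.38 (adjusted p = 0.0672). With the CA3 library of mouse 15-145 as Ts, the 2N ChN value between CA3 PNs and DGCs was 0.36 (adjusted p = 0.0605). That call was also lost without either of 2 mice (largest adjusted p = 0.0633). The 2N ChP call between CA1 and CA3 PNs was lost without any 1 of 4 mice (largest adjusted p = 0.135). No value that passed on the 9 genes changed direction under library totals, DESeq2 or limma-voom. CA1 PNs and DGCs differed by -0.17 to -0.06 and did not pass.

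**Figure D3:**
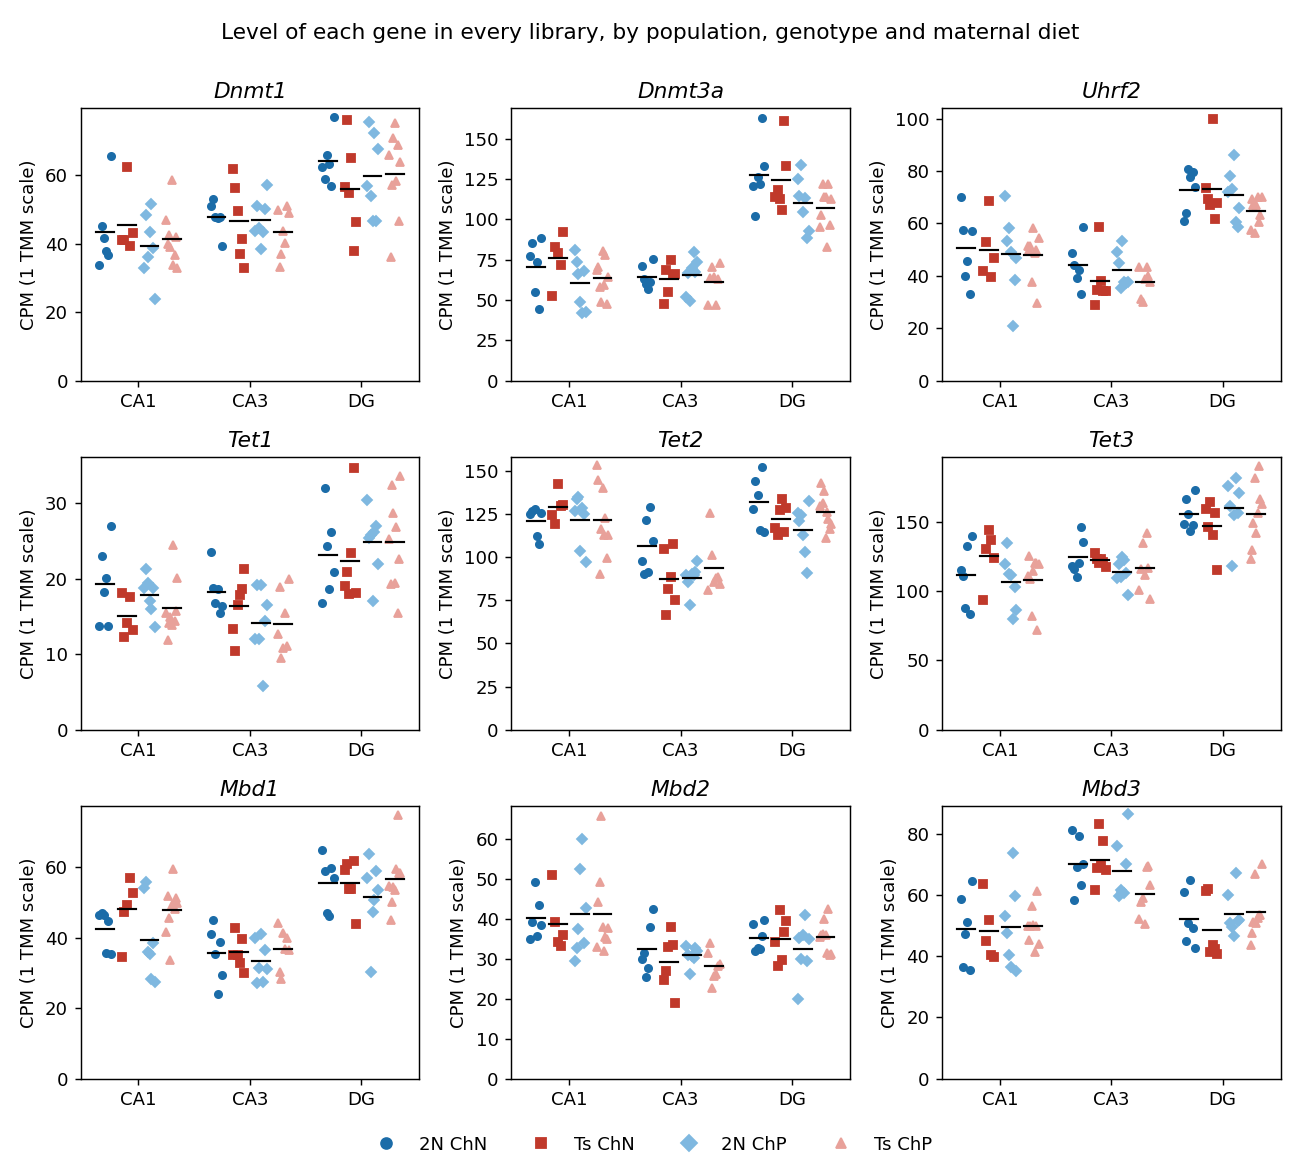
CPM of each gene in every library by population, with 2N and Ts and both diets marked and a line at each group mean. Dnmt3a libraries of DGCs (82.9 to 162.7 CPM) lie above the pyramidal libraries of their group, whereas Mbd3 has its highest median in CA3 PNs (68.5 CPM).

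Several of these differences moved with the CA2-rich CA1 libraries. In the 6 libraries with more CA2 than CA1 marker RNA, Dnmt3a stood at 41.7 to 52.7 CPM against 49.0 to 92.4 CPM in 20 others, and these 6 were the lowest CA1 libraries of their groups. Tet3 stood at 72.3 to 93.6 CPM against 103.0 to 144.2 CPM, and Uhrf2 at 20.8 to 47.0 CPM against 38.6 to 70.6 CPM. How many of all genes separated these sets of libraries was not counted. Mbd2 (median 47.3 against 35.9 CPM) and Mbd3 (58.8 against 48.6 CPM) were higher in the 6 libraries, with overlap. The part of CA2 and CA3 RNA in these values was not tested. Without the 6 libraries and the 17-154 CA1 library, Dnmt3a was still lower in CA1 PNs than in DGCs in all 4 groups (LFC -0.74 to -0.62), and Uhrf2 passed in 3 of 4 groups in place of all 4 (-0.36, adjusted p = 0.0665, in 2N ChN mice). Mbd1 then passed against DGCs in 1 group in place of 3, with an LFC of -0.44 to -0.15. The Mbd2 values between CA1 and CA3 PNs fell to 0.24, 0.26 and 0.26 in 2N ChN, 2N ChP and Ts ChN mice, and the Ts ChP value, 0.47, still passed (adjusted p = 0.00620). Dnmt3a and Uhrf2 became higher in CA1 than in CA3 PNs in 2 groups each: Dnmt3a by 0.34 (adjusted p = 0.0464) in 2N ChN and 0.36 (adjusted p = 0.0273) in Ts ChN mice, and Uhrf2 by 0.44 (adjusted p = 0.0348) in Ts ChN and 0.45 (adjusted p = 0.00152) in Ts ChP mice. Mbd3 was then higher in CA3 than in CA1 PNs in all 4 groups (largest adjusted p = 0.0270).

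Markers of other cells also differed between populations. The summed level of 5 markers of immature and dividing cells (Dcx, Sox11, Igfbpl1, Mki67, Top2a) was 53.9 to 125 CPM in DGC libraries, 15.4 to 39.7 CPM in CA3 and 7.51 to 24.6 CPM in CA1 libraries. At least 1 of Igfbpl1, Mki67 and Top2a was at 0 in every library of each pyramidal group, and none was at 0 throughout a DGC group. The sum of 6 oligodendrocyte markers had a median of 348 CPM in CA3, 163 CPM in CA1 and 191 CPM in DGC libraries, and that of 6 astrocyte markers 281, 213 and 208 CPM, with all genes of both lists detected. Their part in the population differences was not tested.

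Whether trisomy changed the 9 genes was asked in each population and diet. On ChN, 1 of 27 gene and population pairs passed an unadjusted p of 0.05, the threshold of the study: Tet2 was lower in Ts than in 2N CA3 PNs. The background was 3.77% (CA1), 9.2% (CA3) and 8.5% (DGCs) of all genes, and after adjustment over all genes 0 of 27 passed, against 0.00814%, 0.662% and 0.588% of genes. On ChP 0 of 27 passed either threshold, against 3.6%, 4.99% and 7.6% of all genes unadjusted and 0.049%, 0.249% and 0.445% adjusted. The LFC of Ts against 2N ran from -0.40 (Tet1 in CA1 PNs) to 0.15 on ChN and from -0.17 to 0.27 (Mbd1 in CA1 PNs) on ChP. Without the 7 CA1 libraries named above, Tet1 in CA1 PNs on ChN was -0.61 and passed the unadjusted threshold (adjusted p = 0.639), and Mbd1 in CA1 PNs on ChP was 0.13. In 26 of 27 pairs on each diet the 95% interval lay within a 1.5-fold change in either direction, and all 27 lay within a 2-fold change. Dnmt3a, which separated the populations most, had an LFC on ChN of 0.08 (CA1), -0.01 (CA3) and -0.05 (DGCs), and on ChP of 0.08, -0.07 and -0.05.

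Maternal choline supplementation was compared within each genotype. In 2N mice 1 of 27 pairs passed the unadjusted threshold, Tet2 in CA3 PNs, against 3.27% (CA1), 4.9% (CA3) and 5.82% (DGCs) of all genes. In Ts mice 2 of 27 passed, Mbd3 in CA3 PNs and Dnmt3a in DGCs, against 3.05%, 4.19% and 3.81% of all genes. After adjustment 0 of 27 passed in either genotype, against 0%, 0.012% and 0.00605% of genes in 2N and 0%, 0% and 0% in Ts mice. The LFC of ChP against ChN ran from -0.36 to 0.06 in 2N and from -0.28 to 0.20 in Ts mice, the 95% interval lay within a 1.5-fold change for 26 of 27 and 25 of 27 pairs, and all 27 in each genotype lay within a 2-fold change. The ChN and ChP mice differed in the range of depth as well as in diet. The first part of the mouse number differed too: 14 occurred on ChP only, and 17 mostly on ChN. What it stands for is not given in the labels.

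**Figure D4:**
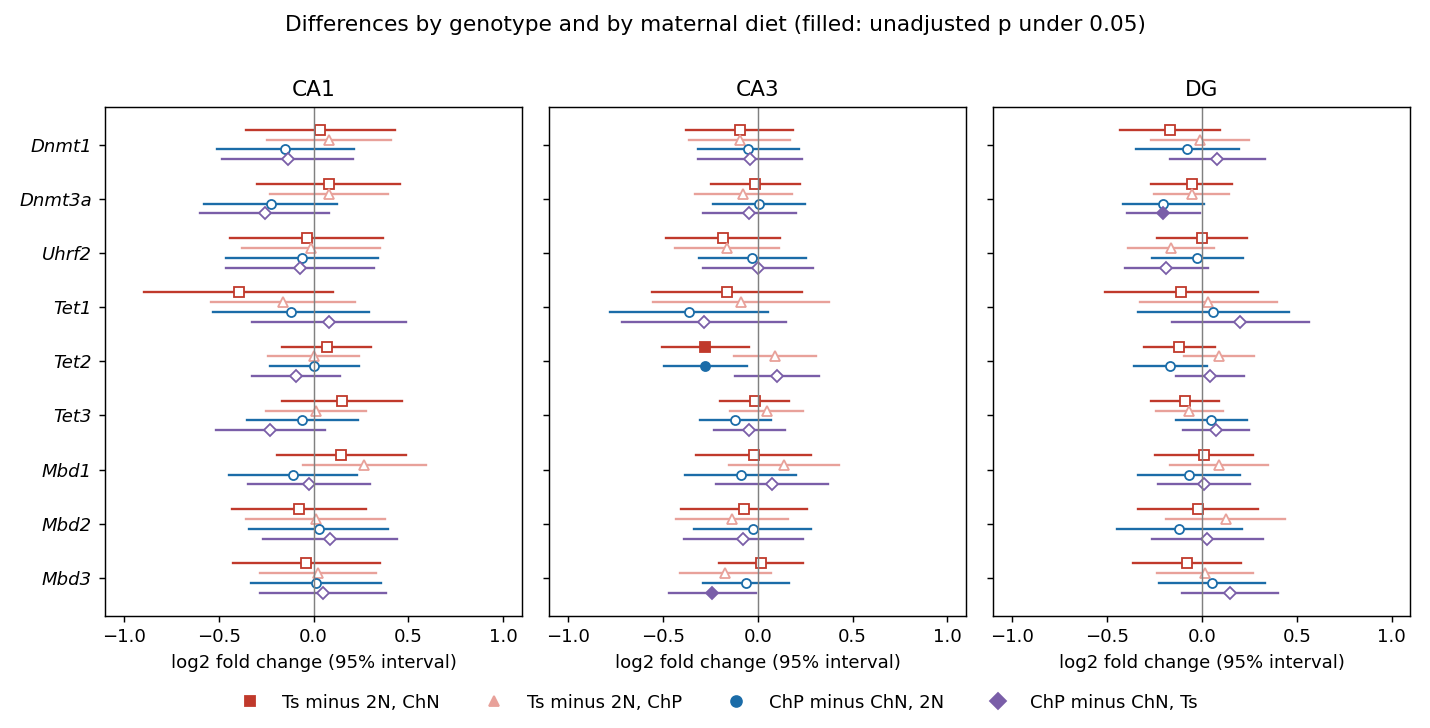
LFC with 95% confidence intervals of the 9 genes for genotype (Ts against 2N) on each diet and for diet (ChP against ChN) in each genotype, by population. Nearly all intervals cross 0; Tet2 in CA3 PNs reaches -0.28 for genotype on ChN.

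Dnmt3a in DGCs of Ts mice ran from 105.5 to 161.2 CPM (median 116.0) on ChN and from 82.9 to 122.1 CPM (median 112.6) on ChP, with overlap. The LFC was -0.20 ± 0.10 (SE; 95% interval -0.40 to -0.01, adjusted p = 0.999). In 2N mice it was also -0.20 without passing the unadjusted threshold, and the interaction was 0.00. Without mouse 17-173, the highest ChN library, the Ts value was -0.10, and it also failed the unadjusted threshold without any 1 of 10 other mice. The call was also lost with library totals, DESeq2 and limma-voom (-0.18 in each) and filterByExpr (-0.19). Mbd3 in CA3 PNs of Ts mice ran from 61.7 to 83.0 CPM (median 69.2) on ChN and from 50.4 to 69.3 CPM (median 59.1) on ChP, with overlap. Its LFC was -0.24 ± 0.12 (95% interval -0.47 to -0.01, adjusted p = 0.999), against -0.06 in 2N mice, with an interaction of -0.18 that did not pass. Without mouse 15-245, the lowest ChP library, it was -0.19 and no longer passed, and the call was also lost without each of 4 other mice.

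Tet2 in CA3 PNs was the 1 gene that passed the unadjusted threshold in more than 1 of these comparisons, which share libraries. The 2N ChN libraries stood at 90.4, 91.2, 98.02, 109.4, 121.7 and 129.1 CPM and the Ts ChN libraries at 66.8, 75.4, 81.6, 88.7, 104.8 and 107.5 CPM. On ChP the 2N libraries ran from 72.6 to 97.9 CPM (median 89.7) and the Ts libraries from 81.3 to 125.9 CPM (median 87.8). The 2N ChN group was the highest and the other 3 lay close together, with overlap between all 4. The LFC of Ts against 2N was -0.28 ± 0.11 on ChN (95% interval -0.50 to -0.05, adjusted p = 0.401) and 0.09 ± 0.11 on ChP (-0.12 to 0.31). The LFC of ChP against ChN was -0.27 ± 0.11 in 2N (-0.49 to -0.06, adjusted p = 0.946) and 0.10 ± 0.11 in Ts mice (-0.12 to 0.32). The genotype by diet interaction was 0.38 ± 0.16 (95% interval 0.07 to 0.69, adjusted p = 0.983). It was the only 1 of 27 interactions to pass, against 3.22% (CA1), 4.87% (CA3) and 3.97% (DGCs) of all genes unadjusted and 0%, 0% and 0% adjusted.

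The genotype difference of Tet2 on ChN was 0.07 in CA1 PNs and -0.12 in DGCs. The difference of these differences between CA1 and CA3 PNs was 0.37 ± 0.16 (95% interval 0.05 to 0.69, adjusted p = 0.99996), and it was 1 of 27 such tests over the 9 genes to pass. The background was 4.22% of all genes for that pair of populations, 5.51% for CA1 PNs with DGCs and 5.18% for CA3 PNs with DGCs, unadjusted, and 0%, 0% and 0.0056% adjusted. Single mice decided the calls on Tet2. Without 2N mouse 17-21, the highest library, the genotype value on ChN was -0.21, the diet value in 2N -0.20, the interaction 0.30 and the difference between CA1 and CA3 PNs 0.28, and none of the 4 passed the unadjusted threshold. The genotype call was also lost without mouse 16-490, 17-154 or 17-192 (-0.24 to -0.23), the diet call without 15-296 (-0.22) or 17-154 (-0.22), the interaction without 15-140 (0.29), and the difference between CA1 and CA3 PNs without 17-153 (0.31) or 17-192 (0.33). The summed level of 6 inhibitory neuron markers (Gad1, Gad2, Slc32a1, Pvalb, Sst, Lhx6, all detected) also differed between these CA3 libraries. It ran from 139 to 361 CPM (median 270) in 2N ChN and from 129 to 170 CPM (median 154) in Ts ChN libraries. On ChP it ran from 157 to 340 CPM (median 217) in 2N and from 129 to 230 CPM (median 180) in Ts libraries. Its median was lower in Ts than in 2N libraries on both diets. The sum of 4 vascular markers was 23.2 to 35.9 CPM in 2N ChN and 19.2 to 24.7 CPM in Ts ChN libraries. Their part in the Tet2 values was not tested.

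**Figure D5:**
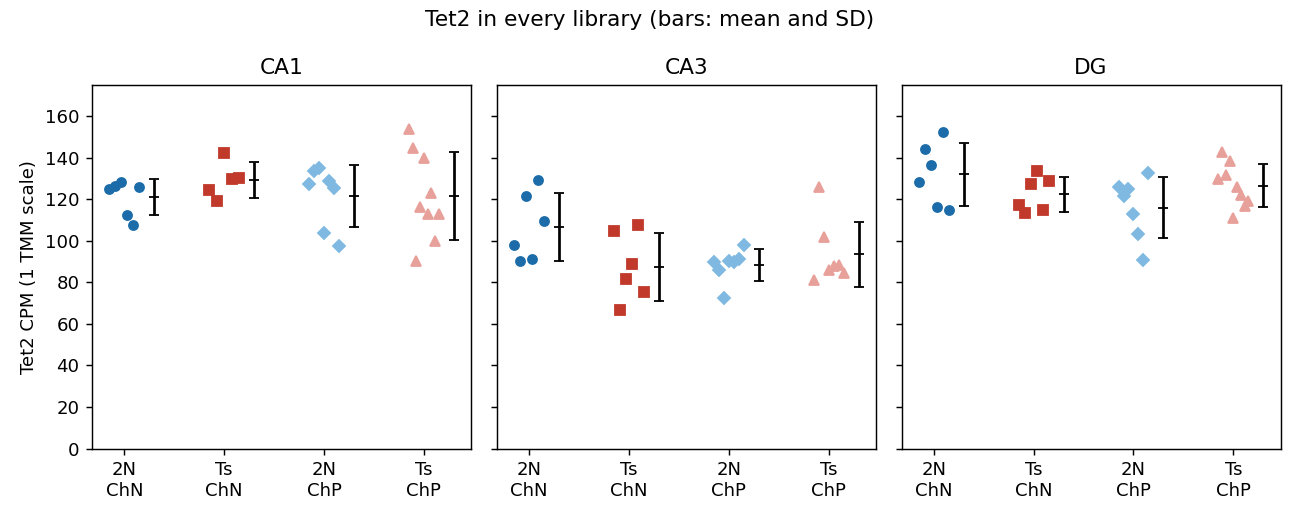
Tet2 CPM in each library by population, genotype and diet, with group means and SD. In CA3 PNs the 2N ChN libraries (90.4 to 129.1 CPM) have the highest mean and overlap the other 3 groups.

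Other genes of the methylation machinery were taken from a list of 43, of which 39 were tested between populations: partners of the writers, oxidation and repair of methylcytosine, other readers, and the NuRD complex. Between CA3 PNs and DGCs, 14 were lower and 5 higher in CA3 PNs of 2N ChN mice, and in the other groups 14 to 16 were lower and 3 to 5 higher. Between CA1 PNs and DGCs 11 were lower and 3 higher in 2N ChN mice, with 13 or 14 lower and 3 to 6 higher in the others. Between CA1 and CA3 PNs 3 were lower and 7 higher in CA1 PNs of 2N ChN mice, with 4 to 6 lower and 6 to 9 higher in the others. In either direction, 43.6% to 51.3% of the list passed between CA3 PNs and DGCs over the 4 groups (40.4% to 44.5% of all genes), 35.9% to 48.7% between CA1 PNs and DGCs (31.8% to 39.3%) and 25.6% to 38.5% between CA1 and CA3 PNs (22.9% to 25.3%). The share of the list that was lower in CA3 PNs than in DGCs was 35.9% to 41%, against 19.5% to 22.5% of all genes. The median LFC of the list between CA3 PNs and DGCs was -0.37, -0.29, -0.27 and -0.24 in 2N ChN, 2N ChP, Ts ChN and Ts ChP mice, beside -0.06 to -0.02 over all genes tested. NuRD components went both ways: Chd5, the remodeler of neurons, was higher in CA3 PNs than in DGCs (LFC 1.33, 1.25, 1.15 and 1.15 in 2N ChN, 2N ChP, Ts ChN and Ts ChP mice), whereas the remodeler Chd3 (-0.97, -0.92, -0.93 and -0.91), the scaffold Gatad2b (-0.72, -0.76, -0.81 and -0.62) and the deacetylase Hdac1 (-1.97, -1.53, -1.64 and -1.63) were lower. CA1 PNs differed from DGCs likewise in Chd5 (1.46, 1.28, 1.36 and 1.202) and Gatad2b (-0.53, -0.59, -0.40 and -0.33). They also had less Ogt, the glycosyltransferase that binds Tet proteins (-0.59, -0.56, -0.57 and -0.44), and less Cxxc5 (-1.05, -1.19, -0.96 and -1.07).

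Between the pyramidal populations, Cxxc4, the CXXC protein known to restrain Tet2, had the smallest p of the list in 2N ChN mice, at 2.38, 2.10, 1.86 and 1.61 higher on the log2 scale in CA1 PNs, and its median level was 20.2 CPM in CA1 PNs, 4.64 CPM in CA3 PNs and 6.11 CPM in DGCs. Its relative Cxxc5 ran the other way (-1.06, -1.17, -0.89 and -1.103). Parp1, a DNA repair polymerase (0.83, 0.71, 0.50 and 0.74), and Chd3 (0.62, 0.47, 0.43 and 0.37) were higher in CA1 PNs. Uhrf1 and Dnmt3l had a median of 0 CPM in all 3 populations and Dnmt3b 0 CPM in both pyramidal populations and 0.81 CPM in DGCs. For genotype, diet and their interaction 0 of the genes tested passed after adjustment in edgeR in any population, against 0% to 0.662% of all genes. Unadjusted, 0 to 4 of 36 to 40 tested genes passed in each comparison, genotype by population included, against 3.05% to 9.2% of all genes. The largest counts were 4 of 40 for genotype by population between CA1 and CA3 PNs (4.22% of all genes), and 2 comparisons in CA3 PNs. These were genotype on ChN (3 higher and 1 lower of 39, 9.2% of all genes) and diet in Ts mice (3 higher and 1 lower of 39, 4.19%).

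For each of the 9 genes the most similar gene was taken by Pearson's correlation of mean log2 CPM over the 12 groups of population, genotype and diet, among 9104 genes with a mean of at least 10 CPM. These correlations describe 12 group means from shared mice and libraries and carry no test. Dnmt3a was closest to Robo3 (r = 0.99) and Uhrf2 to Ccl25 (r = 0.99), and both had many genes over r = 0.95 (249 and 277). Dnmt1 was closest to Klhl33 (0.98, 34 genes), Tet3 to Trrap (0.99, 36 genes) and Mbd1 to G2e3 (0.99, 59 genes). Few genes shared the pattern of the others: Tet1 was closest to Smim3 (0.96, 3 genes), Tet2 to Ece1 (0.98, 5 genes), Mbd2 to Fat3 (0.97, 7 genes) and Mbd3 to St3gal5 (0.96, 10 genes). Robo3 had a median of 14.8 CPM in CA1, 13.5 CPM in CA3 and 52.3 CPM in DGC libraries, so that DGCs stood above both pyramidal populations as for Dnmt3a. Ece1 had medians of 29.1, 13.9 and 29.1 CPM in the same order, with CA3 PNs below both others as for Tet2.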

How the data were processed

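RNA-seq libraries of laser-captured CA1 PNs, CA3 PNs and DGCs were analysed from 3 deposited matrices of RSEM expected counts and from the per-library tables, whose TPM the authors computed with RSEM. Per the labels and the study's methods, reads were checked with FastQC 0.11.9, trimmed with Trimmomatic 0.39, aligned with STAR to GRCm39 with a Gencode annotation, and summarised with Picard 2.26.2 and RSEM; the Gencode release and the strand setting of the counting are not given in the sources used here. The deposited expected counts, 0.784% of which were not whole, were rounded. The study's limma-voom based model also held RNA concentration and Picard covariates, which were not used here.

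Counts were fitted with edgeR 4.0.16 (R 4.3.3; TMM, robust quasi-likelihood, two-sided) on genes above 0.1 CPM in 10 or more of the fitted libraries, or in all where a fit had fewer, with Benjamini-Hochberg adjustment over all genes tested. Calls used an unadjusted p of 0.05 for genotype, as the study did, and the same threshold was taken here for diet and interactions. Calls between populations used an adjusted p of 0.05. Fits were tested on simulated data. Libraries were grouped by the labels, with the CA3 library of mouse 15-145 as 2N after the other libraries of that mouse. Alternatives were library totals, DESeq2 1.42.0, limma-voom (limma 3.58.1), no filter, filterByExpr (minimum count 10), mouse as a block, that library under its own title, and leaving out mice or CA1 libraries; the set of 7 CA1 libraries was chosen after seeing the data. Libraries of 1 mouse share its number in the labels, so the number pairs them: residuals of 9105 genes over 78 same-mouse pairs had a median correlation of 0.088 (-0.009 to 0.21; 33 over 0.1), against -0.003 between mice. In the fits within a population each mouse gave 1 library, and the p-values measure the spread between mice. The main fits between populations, and of genotype by population, held several libraries of a mouse without a block. Their p-values measure the spread between libraries. TPM was not tested. Named genes were the 9 genes, up to 4 of the 43 listed genes per population comparison with the smallest p in 2N ChN mice that passed in all 4 groups, the most similar gene of each, and listed genes with little RNA, added after their values were seen; 1 listed gene is counted with the list but not reported here by name. Members and lists were chosen with earlier results of these data known. Promoter windows were read with Python 3.11.15 from GRCm39 and GENCODE vM39.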

Additional observations from a re-analysis of the deposited data

Results flagged for a closer look

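In 9 of 108 groups of libraries (9 genes in 12 groups) the highest or lowest library stood apart from the rest of its group by Dixon's criterion, which chance meets in about 5% of groups. Among the writers, Dnmt1 in CA1 PNs was high in mouse 17-153 of the Ts ChN group (62.4 CPM) and in mouse 17-56 of the 2N ChN group (65.4 CPM). Uhrf2 was high in CA3 PNs of mouse 17-153 (58.7 CPM) and in DGCs of mouse 17-157 (100.0 CPM), both Ts ChN. Among the erasers, Tet1 in DGCs of Ts ChN mice was high in mouse 17-173 (34.6 CPM), and Tet3 in DGCs of 2N ChP mice was low in mouse 15-296 (118.4 CPM). Among the readers, Mbd1 in DGCs of Ts ChP mice was high in mouse 16-206 (74.7 CPM), Mbd2 in CA1 PNs of Ts ChP mice was high in mouse 15-199 (65.9 CPM), whose library was rich in CA2 markers, and Mbd2 in CA3 PNs of 2N ChP mice was low in mouse 15-296 (26.3 CPM). Mice 17-153 and 15-296 appear 2 times each.

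Of 54 tests of whether an effect differed between groups, 2 passed an unadjusted p of 0.05 in edgeR, both for Tet2 and neither after adjustment. The effect of genotype in CA3 PNs differed between diets by 0.38 on the log2 scale, and the effect of genotype on ChN differed between CA1 and CA3 PNs by 0.37. Both rest on the same 2N ChN CA3 libraries.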

How the results depend on the processing

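The 9 genes gave 27 calls over the 4 groups between CA3 PNs and DGCs, 19 between CA1 PNs and DGCs and 9 between CA1 and CA3 PNs, and 1, 0, 1, 2, 1 and 1 calls for genotype on ChN, genotype on ChP, diet in 2N, diet in Ts, interaction, and genotype by population. No call reversed. The count for diet in 2N rose to 2 with limma-voom, with no filter and without 2 CA1 libraries (17-154 and 17-21), and that for diet in Ts fell to 1 with library totals, DESeq2, limma-voom and filterByExpr, which ended the call on Dnmt3a in DGCs; the cause was not tested. Without the 7 CA1 libraries, the calls between CA1 and CA3 PNs rose to 14 and those between CA1 PNs and DGCs fell to 16. Those for genotype on ChN rose to 2, with Tet1 in CA1 PNs at -0.61 (adjusted p = 0.639). Leaving out 1 mouse at a time gave 26 to 28, 17 to 20 and 8 to 10 population calls in the order above, 0 to 2 for genotype on ChN, 0 to 1 on ChP, 0 to 2 for diet in 2N, 0 to 4 for diet in Ts, 0 to 1 for the interaction and 0 to 2 for genotype by population. These are net counts, in which a gained call can offset a lost one. Over all calls and left-out mice, 450 results kept their call and 72 lost it. Besides the losses given above by gene, 2 mice each ended the Tet3 call between CA3 PNs and DGCs in Ts ChN mice. For Tet2, 1 mouse ended the 2N ChN call between CA3 PNs and DGCs, and 1 the Ts ChP call between CA1 and CA3 PNs. For Uhrf2, 1 mouse ended the Ts ChN call between CA1 PNs and DGCs. With mouse as a replicate block the population calls were 27, 21 and 9 and genotype by population 1; the block ended 1 call, Mbd1 between CA1 and CA3 PNs in Ts ChN mice (adjusted p = 0.0570). Library totals gave 31, 23 and 12 population calls and no filter 26, 15 and 7. Library totals also moved the median LFC of all genes against DGCs, to between -0.26 and -0.12. The share of all genes that passed under each alternative is not given here, so these counts cannot be set against it. With the CA3 library of mouse 15-145 as Ts, they were 26, 18 and 9. At the median count of Tet1 the counting error alone was 21.3% in 1 library, so differences of that size in this gene were hard to detect.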
